A study of Mus musculus with 8 samples.

Results

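The genes described here are a panel of 38 genes of blood and lymph vessel lining cells and of sprouting vessels, chosen by symbol. Earlier results of these data were known when the panel and the further lists were chosen. The array measured 36 of the 38 among 12393 genes, and Gpihbp1 and Mmrn2 had no probe set of their own here. A gene with several probe sets is represented by the brightest of them, by mean over all 8 arrays. Total RNA came from 6 primary soft tissue sarcomas, of which 4 were Braf Ca/Ca (tumours 1, 2, 3 and 5) and 2 were Braf Ca/+ (tumours 1 and 2), and from 2 normal muscles, 1 of each genotype. All samples, muscles included, have the genotype p53 Fl/Fl together with the conditional BrafCa allele, homozygous in Ca/Ca and heterozygous in Ca/+. Tumours were started by injecting an adenovirus that expresses Cre, the recombinase that acts on floxed alleles, and the muscles were taken from hind limbs that bore no tumour. The labels give neither age, sex nor strain, and they do not say whether each array is a separate animal, and p-values here reflect only how far the 8 samples scatter, part of which may be technical.

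Endothelial cells line every vessel. Vascular endothelial growth factor (VEGF) acts on them through the receptors Kdr and Flt1 with the co-receptor Nrp1, and angiopoietins act through the receptor Tek, whose signalling keeps a vessel quiet and sealed. When a vessel sprouts, its leading tip cells turn on genes such as Esm1, Apln, Angpt2 and Dll4. Skeletal muscle is dense in capillaries.

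Values are deposited log2 levels, so a difference of 1 is a doubling of signal and levels of different genes are not compared with each other. In bulk tissue, fewer endothelial cells and less RNA per endothelial cell cannot be told apart. The arrays also do not show which cells made a gene's RNA. As a guide to background, 19 genes of other organs, such as liver and testis, had a median of 3.27, a 90th percentile of 5.06 and a highest value of 5.52 over the 8 arrays. Pecam1 and Cdh5, the defining endothelial adhesion genes, lay above 5.52 on every array, whereas Prox1, the master regulator of lymphatic endothelium, lay at 2.00 to 2.22 in sarcomas and at 1.98 and 1.87 in muscles, within background. The labelled muscle was checked with 10 muscle fibre genes, whose mean level was 6.91 to 9.14 in sarcomas and 12.72 and 12.71 in the Ca/Ca and Ca/+ muscles. All 10 were lower in sarcoma.

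Set against muscle, the sarcomas held less RNA of much of the vessel panel. In limma's test across all genes (Benjamini-Hochberg adjusted p under 0.05), 17 of the 36 measured genes fell, 1 rose (Esm1) and 18 did not pass. Over all genes tested, 26.3% passed, 13.2% as lower and 13.1% as higher, and 37.9% had an unadjusted limma p under 0.05. The median difference of the panel was -0.99 on the log2 scale, against 0.03 over all genes. Of the 17 that fell, 15 fell at least 2-fold. In 22 of the 36 genes every sarcoma lay below both muscles, against 19.0% of all genes, and 2 genes (Esm1 and Prox1) lay above both in every sarcoma, against 20.0%. The 17 falls became 12 without the Ca/Ca muscle and 6 without the Ca/+ muscle, and the 6 were Pecam1, Tek, Vwf, Ptprb, Sox17 and Nos3. These 6 and Esm1 passed without any 1 of the 8 arrays.

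**Figure D1:**
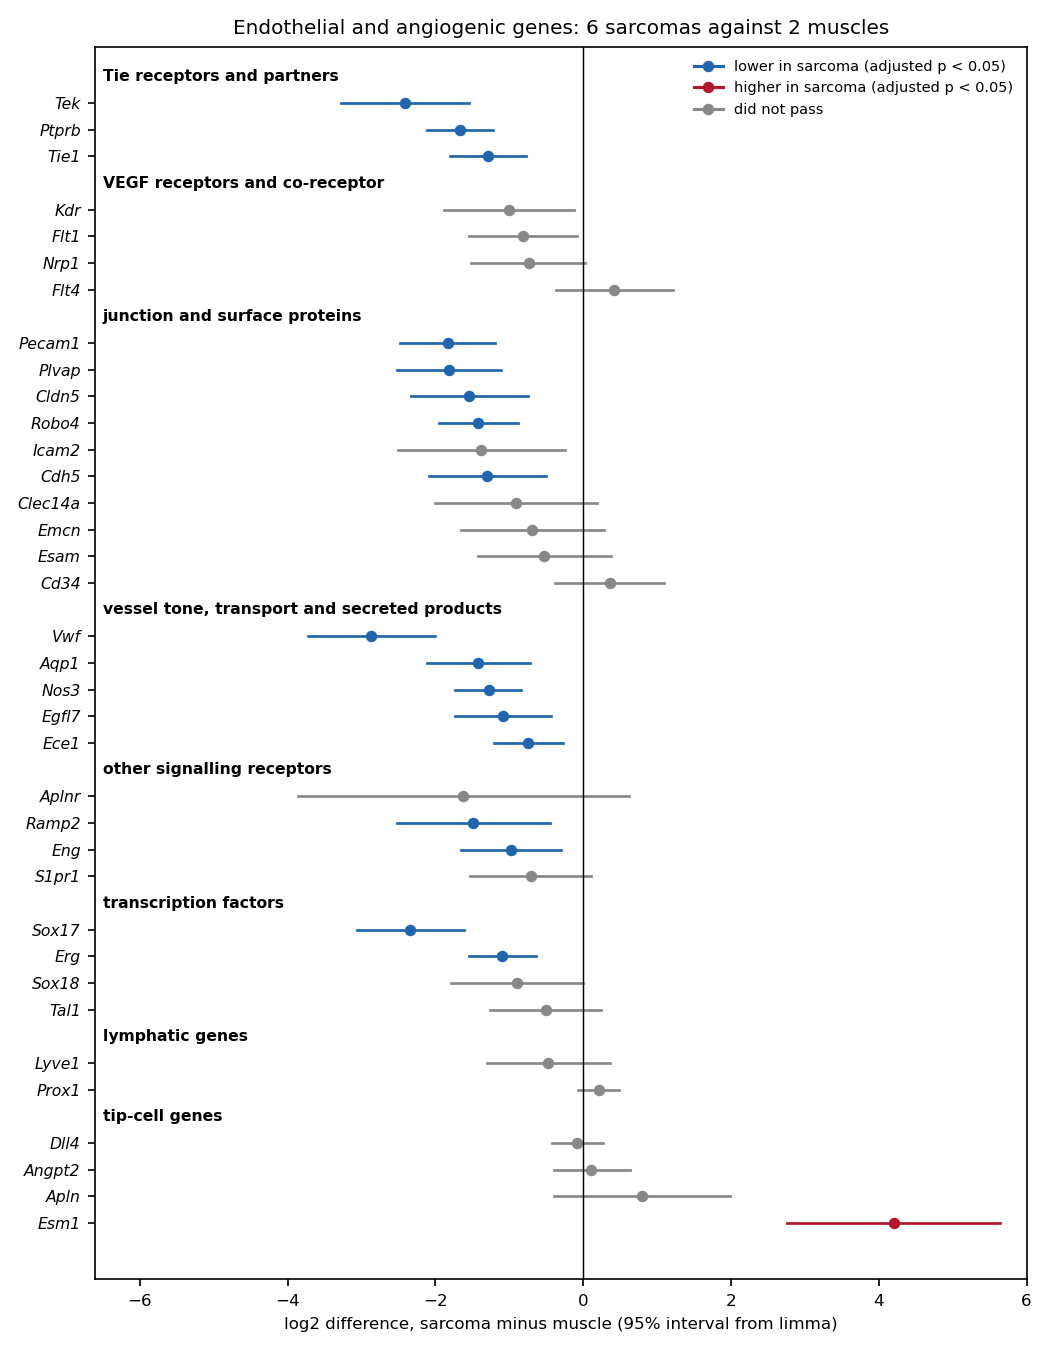
Log2 difference between 6 sarcomas and 2 muscles (x axis, sarcoma minus muscle) for the 36 measured vessel genes, grouped by role. Points are limma estimates and bars their 95% intervals, in blue for the 17 genes that were lower, in red for Esm1, which was higher at 4.20, and in grey for the 18 that did not pass.

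All 3 genes of the Tie receptor system fell. Tek, the angiopoietin receptor, ran from 4.47 to 5.88 in sarcomas (median 5.74), against 7.61 and 8.21 in the Ca/Ca and Ca/+ muscles. No sarcoma reached either muscle. The difference was -2.41 (SE 0.38, limma adjusted p = 0.00286). Ptprb, the endothelial phosphatase that restrains Tek, had 6.43 ± 0.25 in the 6 sarcomas and 8.10 ± 0.18 in the 2 muscles (mean ± SD), a difference of -1.67 with the smallest adjusted p of the panel (0.000692). Tie1, the second receptor of the family, fell by 1.29 (SE 0.22, limma adjusted p = 0.00406) and just missed the threshold without the Ca/+ muscle (0.0511).

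None of 4 VEGF receptor genes passed in limma. Of the 4, 2 (Kdr and Flt1) had an unadjusted p under 0.05, against 37.9% of all genes, and passed as lower under some alternatives. Kdr, the main signalling receptor, had 6.61 ± 0.58 in the 6 sarcomas and 7.62 ± 0.22 in the 2 muscles (mean ± SD). All 6 sarcomas lay below both muscles, but by little in Ca/Ca sarcoma 1 (7.37 against 7.47 in the Ca/Ca muscle). The difference of -1.01 had a 95% interval from -1.89 to -0.13 (limma adjusted p = 0.0891). Kdr passed in limma under housekeeping centring (-1.34, adjusted p = 0.0352) and without Ca/Ca sarcoma 1 (-1.16, 0.0435). Housekeeping centring lowers every gene's difference here. The housekeeping genes had a median of 0.35 before it, and the median of all genes was -0.31 after it. Flt1, the decoy-like receptor, differed by -0.82 (limma adjusted p = 0.0936), and its 3 probe sets gave -0.82, -1.72 and -0.17. It passed with the mean of its probe sets (-0.90, limma adjusted p = 0.039), with array weights (-0.95, 0.0391), under housekeeping centring (-1.15, 0.0324) and without Ca/Ca sarcoma 5 (-0.95, 0.0288). Nrp1 differed by -0.74 (interval -1.52 to 0.03), with -1.08 and adjusted p = 0.0455 in limma under housekeeping centring, and Flt4, the receptor of lymphatic VEGF-C, by 0.42 (interval -0.37 to 1.21). Whether the Tie genes differed more than the VEGF receptors was not tested, and the intervals of Kdr and Tie1 overlap.

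Among 10 measured junction and surface genes, 5 fell and 5 did not pass, with a median of -1.34. Pecam1 (CD31), the classical vessel stain, ran from 5.75 to 6.63 in sarcomas, against 8.07 and 8.22 in muscles. The gap between the groups was wide compared with the spread within each. It fell by 1.83 in sarcoma, or 3.56-fold (SE 0.28, limma adjusted p = 0.00252). Plvap, which forms the diaphragms of capillary pores, fell by 1.81 (limma adjusted p = 0.00392), and its adjusted p was 0.0502 without the Ca/+ muscle. Cldn5, the tight junction claudin of endothelium, averaged 7.60 ± 0.52 in the 6 sarcomas (SD) and 9.14 ± 0.04 in both muscles (limma adjusted p = 0.0126). Cdh5 (VE-cadherin), the adherens junction protein, fell (-1.30, limma adjusted p = 0.0248), as did Robo4, a stabilising guidance receptor (-1.42, 0.00343). Without the Ca/+ muscle the adjusted p of Cldn5 was 0.0922, of Cdh5 0.171 and of Robo4 0.0517, and without the Ca/Ca muscle that of Cldn5 was 0.0718 and of Cdh5 0.0929.

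The other 5 junction and surface genes kept intervals that reach or come near 0. Icam2, an adhesion ligand for leukocytes, differed by -1.38 with every sarcoma below both muscles (limma adjusted p = 0.0726). Under housekeeping centring, which lowers every gene's difference, its limma adjusted p was 0.0325. Clec14a (-0.91), Emcn (-0.69) and Esam (-0.53) each had 5 of 6 sarcomas below both muscles. Cd34, a sialomucin also made by fibroblast-like cells of connective tissue, had 9.69 ± 0.47 in the 6 sarcomas and 9.34 ± 0.23 in the 2 muscles (mean ± SD), and 4 of 6 sarcomas lay above both muscles. Its difference of 0.36 had an interval from -0.38 to 1.09.

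All 5 measured genes of secreted products, vessel tone and transport fell. Vwf, the clotting factor carrier that endothelium stores, had the largest fall of the panel. Its sarcoma levels ran from 4.46 to 5.89 (median 5.32), against 8.41 and 7.95 in the Ca/Ca and Ca/+ muscles. Every sarcoma lay at least 2 log2 units below both muscles. The sarcoma mean of 5.31 lay under the highest background value (5.52), so the size of the fall is not measured exactly. The difference was -2.87 (SE 0.37, limma adjusted p = 0.00116), or 7.32-fold lower in sarcoma, and it passed without any 1 array. Nos3, the endothelial nitric oxide synthase, fell by 1.28 (limma adjusted p = 0.0023). Aqp1, the water channel of capillaries and red cells, fell by 1.42 (limma adjusted p = 0.0108). Egfl7, a secreted endothelial matrix factor (-1.09, 0.0224), and Ece1, which matures endothelin (-0.75, 0.0274), also fell. Without the Ca/+ muscle the adjusted p of Aqp1, Egfl7 and Ece1 was 0.113, 0.237 and 0.195, and the Egfl7 difference was -0.75. Ece1 also lost its call without the Ca/Ca muscle (0.0873), Ca/Ca sarcoma 2 (0.0503) or Ca/+ sarcoma 2 (0.0529).

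Of 4 further signalling receptors, Eng and Ramp2 fell and Aplnr and S1pr1 did not pass. Eng (endoglin), a TGF-beta co-receptor (-0.98), and Ramp2, a partner of the adrenomedullin receptor (-1.49), were both close to the threshold (limma adjusted p = 0.0419 each). Leaving out any of 5 arrays ended the call of either gene, with adjusted p reaching 0.23 for Eng and 0.334 for Ramp2. For Eng these were both muscles, Ca/Ca sarcomas 3 and 5 and Ca/+ sarcoma 2, and for Ramp2 both muscles, Ca/Ca sarcomas 1 and 2 and Ca/+ sarcoma 2. Aplnr, the receptor of apelin, had all 6 sarcomas below both muscles and a difference of -1.62, but an SE of 0.98 (limma adjusted p = 0.272). S1pr1, the sphingosine phosphate receptor of quiet vessels, differed by -0.71 (limma adjusted p = 0.185).

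Among 4 transcription factors, Sox17 and Erg fell. Sox17, a factor of arterial endothelium, ran from 4.83 to 5.82 in sarcomas, against 7.21 and 8.24 in the Ca/Ca and Ca/+ muscles. No sarcoma came near either muscle. The difference was -2.34 (SE 0.32, limma adjusted p = 0.00144), and the gene's other probe set gave -1.76. Erg, the ETS factor that maintains endothelial identity, fell by 1.10 (limma adjusted p = 0.00516), with 0.0648 without the Ca/+ muscle. Its sarcoma mean of 4.08 lay within background, as did that of Clec14a (5.06). The sarcoma means of Vwf (5.31), Sox17 (5.39) and Tek (5.50) lay under the highest background value. The sizes of the falls of Erg, Vwf, Sox17 and Tek are therefore not measured exactly. Sox18 (-0.90) and Tal1 (-0.51), a factor shared with blood cells, did not pass. Of the 2 lymphatic genes, Lyve1, a hyaluronan receptor also made by tissue macrophages, averaged 9.03 ± 0.51 in the 6 sarcomas (SD) and 9.50 ± 0.48 in both muscles and did not pass.

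Of 4 tip-cell genes, 1 rose and 3 did not pass. Which cells of the tissue made their RNA was not tested. Esm1 (endocan), a proteoglycan secreted by sprouting endothelium, had 9.13, 8.39, 7.50 and 8.46 in Ca/Ca sarcomas 1, 2, 3 and 5 and 7.98 and 8.42 in Ca/+ sarcomas 1 and 2, against 5.41 and 2.82 in the Ca/Ca and Ca/+ muscles. All 6 sarcomas lay above both muscles, the lowest by more than 2 log2 units. It rose by 4.20 (SE 0.63, interval 2.76 to 5.64, limma adjusted p = 0.00226). The Ca/+ muscle level lies at background, and the Ca/Ca muscle level (5.41) lies under the highest background value (5.52). The muscle mean of 4.11 lay in background, so the size of the rise is not measured exactly. The difference was 2.91 without the Ca/+ muscle and 5.50 without the Ca/Ca muscle. With Ca/Ca arrays only it was 2.96 and did not pass (limma adjusted p = 0.0637).

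Apln, the apelin peptide gene, had 6.51, 6.32, 6.30 and 5.39 in Ca/Ca sarcomas 1, 2, 3 and 5 and 7.20 and 6.67 in Ca/+ sarcomas 1 and 2, against 6.46 and 4.74 in the Ca/Ca and Ca/+ muscles. The sarcomas straddled the Ca/Ca muscle and lay above the Ca/+ muscle. The difference of 0.80 (interval -0.39 to 1.98) was -0.06 without the Ca/+ muscle and 1.66 without the Ca/Ca muscle. Angpt2, the angiopoietin that opposes Tek signalling in sprouts, had 6.27 ± 0.31 in the 6 sarcomas and 6.16 ± 0.21 in the 2 muscles (mean ± SD). Its difference of 0.11 (interval -0.40 to 0.63) stands beside that of Tek (-2.41). Dll4, the Notch ligand of tip cells, ran from 5.04 to 5.50 in sarcomas, against 5.21 and 5.35 in muscles, at the upper edge of background on every array. Its difference was -0.08 (interval -0.42 to 0.27).

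Set side by side per array, the mean level of the 4 tip-cell genes was 6.39 to 6.78 in sarcomas, against 5.85 and 4.73 in the Ca/Ca and Ca/+ muscles. The mean of the other 32 measured genes was 6.40 to 7.04 in sarcomas, against 7.80 and 8.07. Without Esm1 the tip-cell mean was 5.73 to 6.10 in sarcomas, against 5.99 and 5.37, so the separation of tip-cell means from both muscles rested on Esm1. The median difference was 0.46 over the 4 tip-cell genes, 0.11 over the 3 without Esm1 and -1.09 over the other 32. Without the Ca/+ muscle the tip-cell median was -0.02.

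**Figure D2:**
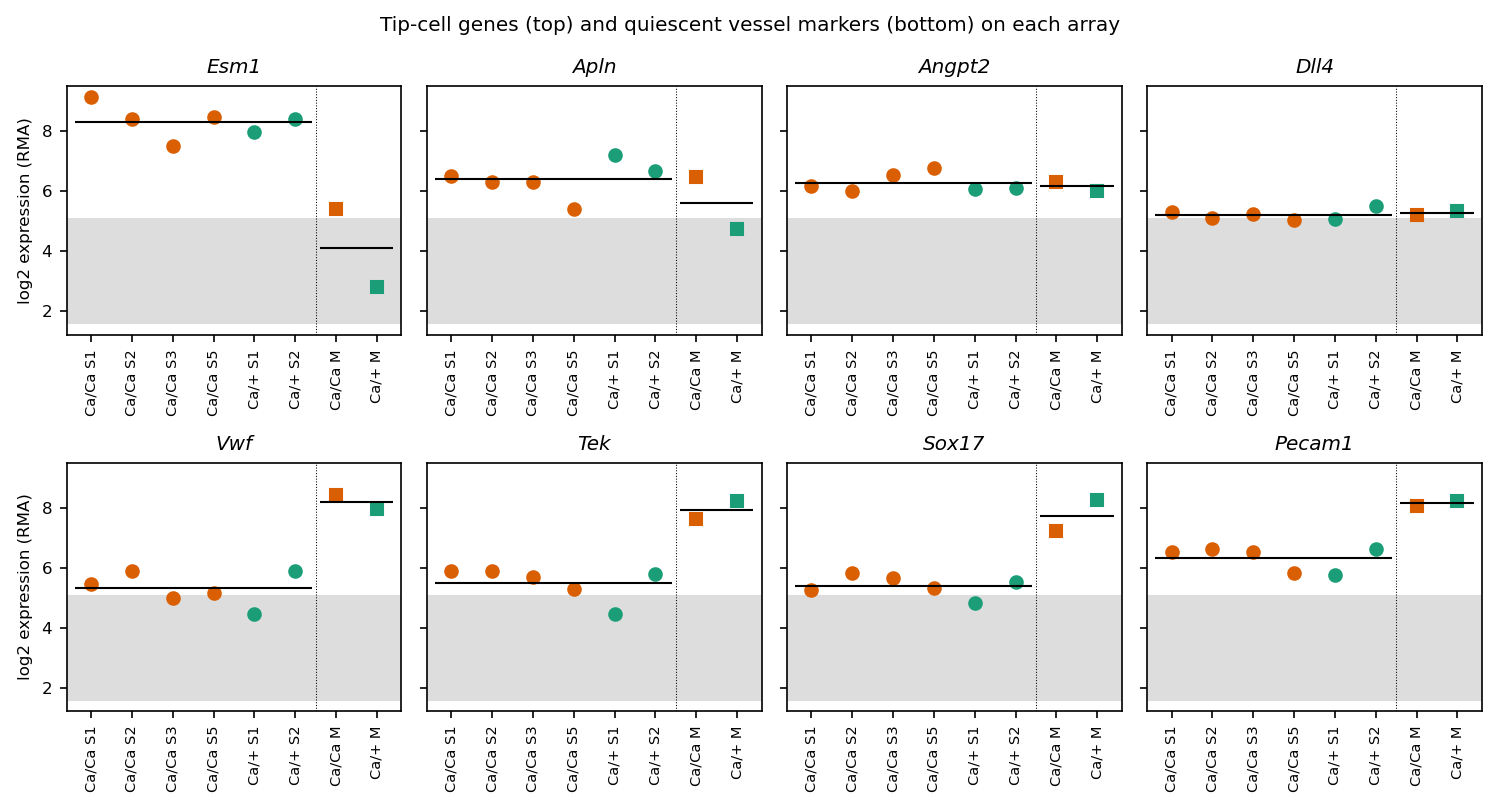
Log2 expression (y axis) of the 4 tip-cell genes (top) and of 4 vessel markers (bottom) on each array (x axis, S for sarcoma, M for muscle), with Ca/Ca in orange and Ca/+ in green. Black lines are group means and the grey band runs from the lowest value to the 90th percentile (5.06) of 19 genes of other organs. The 4 vessel markers shown are those with the largest falls of the panel. Of the 32 measured genes outside the tip-cell list, 15 did not pass. All 6 sarcomas exceed both muscles for Esm1 and lie below both for Vwf, Tek, Sox17 and Pecam1.

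Promoter sequence is shown for the 3 tip-cell genes in the RefSeq promoter table (build GRCm38.p6) and, for contrast, for Tek, Cldn5 and Aqp1, which fell furthest among the genes it holds. Each line gives the 250 bases before the transcription start, 5′ to 3′ on the gene's strand. Capitals mark a match to the ETS letters AGGAAG or CGGAAG on either strand, the kind of site that Erg and its relatives bind.
Esm1 (chr13:113209409-113209658, plus strand): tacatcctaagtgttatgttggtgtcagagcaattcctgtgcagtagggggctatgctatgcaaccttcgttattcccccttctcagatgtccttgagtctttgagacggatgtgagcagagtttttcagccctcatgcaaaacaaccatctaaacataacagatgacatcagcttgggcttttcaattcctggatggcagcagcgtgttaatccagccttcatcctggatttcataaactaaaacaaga
Apln (chrX:48034854-48035103, minus strand): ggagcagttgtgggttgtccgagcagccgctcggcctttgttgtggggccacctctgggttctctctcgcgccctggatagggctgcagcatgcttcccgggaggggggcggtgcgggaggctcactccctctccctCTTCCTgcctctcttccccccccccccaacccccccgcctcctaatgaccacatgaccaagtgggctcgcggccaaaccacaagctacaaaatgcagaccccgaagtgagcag
Dll4 (chr2:119325534-119325783, plus strand): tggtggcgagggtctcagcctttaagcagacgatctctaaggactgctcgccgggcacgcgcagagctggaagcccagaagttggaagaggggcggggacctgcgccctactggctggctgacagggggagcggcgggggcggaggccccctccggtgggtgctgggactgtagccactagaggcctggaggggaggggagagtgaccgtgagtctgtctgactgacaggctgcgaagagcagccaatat
Tek (chr4:94739039-94739288, plus strand): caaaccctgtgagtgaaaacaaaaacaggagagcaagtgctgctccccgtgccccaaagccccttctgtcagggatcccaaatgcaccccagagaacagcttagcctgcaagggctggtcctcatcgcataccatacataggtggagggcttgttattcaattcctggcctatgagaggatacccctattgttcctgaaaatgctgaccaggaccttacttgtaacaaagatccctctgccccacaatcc
Cldn5 (chr16:18776597-18776846, plus strand): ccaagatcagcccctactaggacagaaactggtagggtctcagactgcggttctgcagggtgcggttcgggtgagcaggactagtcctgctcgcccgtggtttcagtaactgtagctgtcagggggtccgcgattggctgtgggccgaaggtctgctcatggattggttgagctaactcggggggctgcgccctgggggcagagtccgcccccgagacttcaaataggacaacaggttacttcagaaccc
Aqp1 (chr6:55336049-55336298, plus strand): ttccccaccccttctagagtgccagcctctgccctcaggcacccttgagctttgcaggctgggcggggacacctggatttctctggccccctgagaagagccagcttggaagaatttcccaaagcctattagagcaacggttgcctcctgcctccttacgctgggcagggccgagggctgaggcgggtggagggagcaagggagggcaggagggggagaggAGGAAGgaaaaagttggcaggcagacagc
Apln holds 1 match, starting 113 bases before the start site, and Aqp1 holds 1, starting 29 bases before it. The windows of Esm1, Dll4, Tek and Cldn5 hold none. Over all 30 windows of the 21 vessel genes in the table, 13 (43.3%) held AGGAAG or CGGAAG, against 39.2% of 32851 windows of all genes. The letters TGGGAA, read by the Notch factor Rbpj, stood in 8 of the 30 windows, against 21.6% of all windows, and the hypoxia letters ACGTG in 2, against 16.6%. Each motif was searched on both strands, and a match is a description of letters, not of binding.

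Among the sarcomas the vessel genes had a median range of 1.33 log2 units over the 6 tumours, against 0.65 over all genes. Ca/+ sarcoma 1 was the lowest of the 6 in 15 of the 36 genes, among them Pecam1, Tek, Tie1, Vwf, Ptprb, Plvap and Sox17. Ca/Ca sarcoma 5 was the lowest in 11, among them Cdh5, Kdr, Aplnr, Icam2, Lyve1, Nrp1 and Tal1, and the highest in 7 (Flt1, Esam, Cldn5, Ramp2, Angpt2, Ece1 and S1pr1). Ca/+ sarcoma 2 was the highest in 9 and the lowest only in Prox1. How often each tumour was lowest or highest over all genes was not counted, so these counts are not shown to be particular to vessel genes. Over all genes, Ca/Ca sarcoma 5 correlated with the other sarcomas at 0.940 to 0.953, and the remaining sarcoma pairs at 0.959 to 0.983. Ca/+ sarcoma 1 also had the lowest muscle fibre mean (6.91, against 7.99 to 9.14 in the other sarcomas) and Ca/Ca sarcoma 5 the lowest leukocyte and progenitor mean (5.20, against 6.37 to 6.68). The part of these cells in the vessel values was not tested.

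Aplnr spanned the widest range. It stood at 9.62, 9.54 and 9.14 in Ca/Ca sarcomas 1, 2 and 3 and at 9.61 in Ca/+ sarcoma 2, but at 6.06 in Ca/Ca sarcoma 5 and 7.11 in Ca/+ sarcoma 1, against 10.32 and 9.94 in muscles. The pair of tumours low in Aplnr, the receptor, held the lowest and the highest level of its ligand gene Apln (5.39 in Ca/Ca sarcoma 5 and 7.20 in Ca/+ sarcoma 1). Without Ca/Ca sarcoma 5, Esam (-0.74, limma adjusted p = 0.0352), S1pr1 (-0.90, 0.0239) and Flt1 passed as lower in sarcoma while Eng no longer did, and the count of falls became 19.

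**Figure D3:**
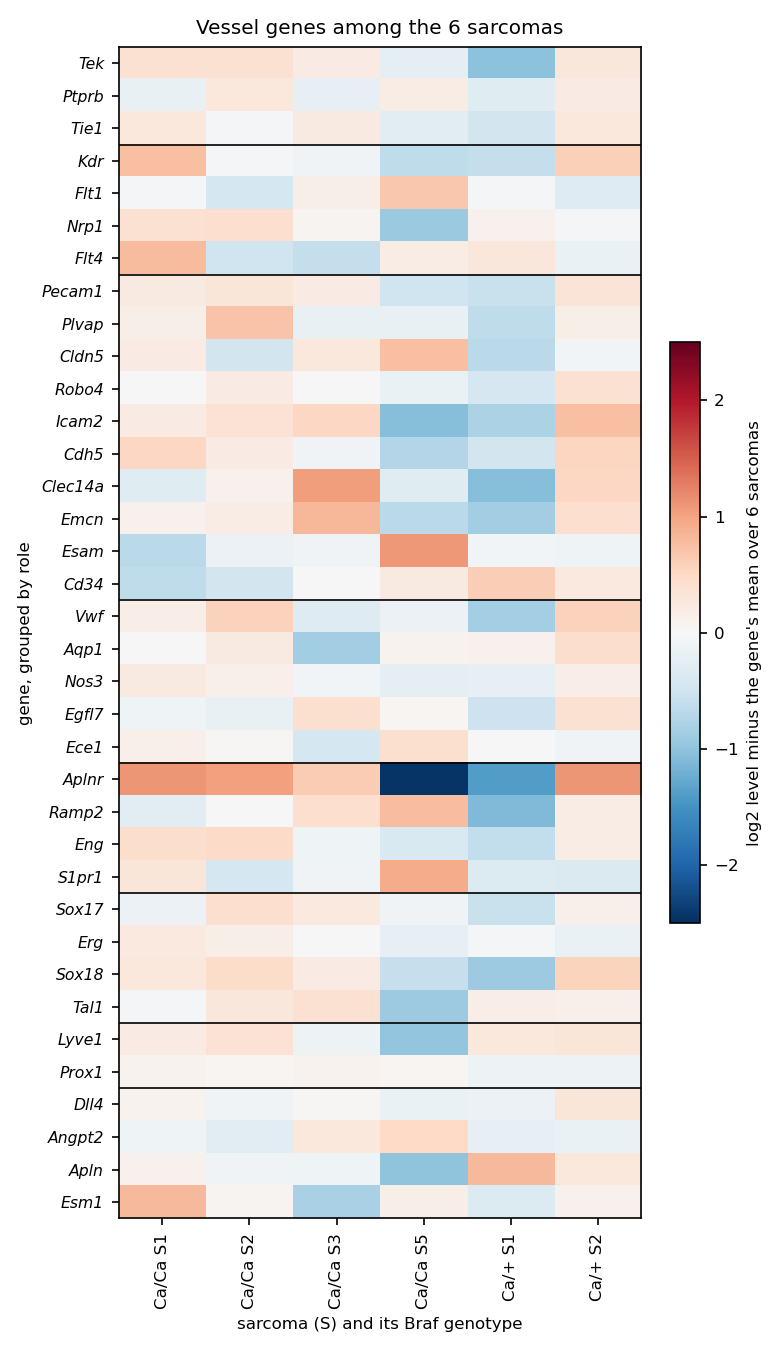
Level of each of the 36 vessel genes (rows, grouped by role) in each of the 6 sarcomas (columns), as the log2 difference from that gene's mean over the sarcomas. Red is higher and blue is lower, with the darkest cell at Aplnr in Ca/Ca sarcoma 5, and Ca/+ sarcoma 1 is lowest in 15 rows.

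Between genotypes, no vessel gene passed in Ca/Ca against Ca/+ sarcomas, and limma called 0.0% of all 12393 genes. At an unadjusted p under 0.05 the counts were 0 of 36 vessel genes and 971 of 12393 genes (7.84%). The smallest unadjusted p of the panel was that of Apln, with 6.13 in Ca/Ca and 6.93 in Ca/+ sarcomas (means of 4 and 2), a difference of -0.81 with an interval from -1.65 to 0.03. Cd34 differed by -0.65 and Ramp2 by 0.69, and neither passed (limma adjusted p = 0.634 and 0.705). The test of whether the difference between tissues depends on genotype, in which each genotype has 1 muscle, called 0 of 36 and 1 of 12393 genes (0.00807%), and at an unadjusted p under 0.05 it held 4 of 36 and 7.22% of all genes. Its smallest p of the panel was again that of Apln (-2.53, unadjusted p = 0.0082, limma adjusted p = 0.476), followed by Esm1 (-2.42, unadjusted p = 0.0248, limma adjusted p = 0.601), both higher in the Ca/Ca than in the Ca/+ muscle. In simulated data over 12393 genes, the genotype test recovered 30% and the interaction test 1.46% of changes of 1 log2 unit, so calls of that size would mostly be missed here.

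Of 15 measured endothelial genes outside the panel, 10 fell, 1 rose and 4 did not pass, with a median of -1.04. Among all genes, the shares were 13.2% lower and 13.1% higher. The largest changes were the falls of Podxl, a sialomucin of the vessel lumen (-1.95, limma adjusted p = 0.000464), Adgrl4, an endothelial adhesion receptor (-1.91, 0.00329), and Palmd (-1.86, 0.00214), whose sarcoma mean of 4.77 lay in background. The gene that rose was Tm4sf1, a membrane protein of endothelium and of many tumour cells (1.74, limma adjusted p = 0.0037, and 0.0529 without the Ca/+ muscle), named after its value was seen. Of 7 genes by which capillaries of muscle handle lipid and carbonate, 6 fell, with a median of -3.36. Cd36, the fatty acid transporter (-4.29), Lpl, the lipoprotein lipase (-3.96), and Car4, a carbonic anhydrase of the capillary surface (-3.94), fell (limma adjusted p at most 0.000416). Car4 ran from 3.24 to 4.48 in sarcomas, within background, so the size of its fall is not measured exactly. Cd36 is also made by fat and muscle cells, Lpl is made by them, and Fabp4 is in both the capillary and the adipocyte list. Adipocyte genes (6 of 6 lower, median -4.18, mean level 5.51 to 7.13 in sarcomas against 9.80 and 11.23 in muscles) and fibre genes (median -4.51) fell as well. Their part in the result was not tested.

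Of 7 venular and activation genes, Selp, the P-selectin of venules (-3.09), Lrg1 (-2.87) and Ackr1, the chemokine-binding receptor of venules (-2.72), fell (limma adjusted p at most 0.00415, and 0.061 for Lrg1 without the Ca/+ muscle), while Vcam1, a leukocyte adhesion molecule, rose by 2.16 (0.00345) and was named after its value was seen. Of 19 further endothelial regulators, 7 fell and 1 rose, with a median of -0.41. Beside the counts of this and the paragraph's other lists, 13.2% of all genes passed as lower and 13.1% as higher. Klf2, the flow-induced factor, fell by 1.74 (limma adjusted p = 0.0161) and Rasip1, a regulator of vessel lumens, fell by 1.48 (0.00462), whereas Foxc2, a factor of lymphatic valves and mesenchyme, rose by 2.26 (0.0491). Without the Ca/+ muscle these had adjusted p-values of 0.153, 0.0648 and 0.43, and the Foxc2 difference was 1.24. The sarcoma mean of Rasip1 (4.63) and the muscle mean of Foxc2 (4.66) lay in background. Of 11 pericyte and smooth muscle genes 4 fell and 7 did not pass, with a median of -0.98. Myh11, smooth muscle myosin (-3.39), Des, desmin, which muscle fibres also make (-3.39), and Abcc9, a channel subunit of pericytes (-2.50), fell (limma adjusted p at most 0.00135). The sarcoma means of Myh11 (4.15) and Abcc9 (3.83) lay in background, so the sizes of these falls are not measured exactly.

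Of 12 measured ligands of vessel growth, 2 fell, 0 rose and 10 did not pass, with a median of -0.27. The 2 of 12 that fell are near the 13.2% of all genes that passed as lower. Vegfa, the main VEGF, had 6.97 ± 0.43 (SD, n = 6) in sarcomas, against 6.17 and 7.19 in the Ca/Ca and Ca/+ muscles. Its difference of 0.29 did not pass (limma adjusted p = 0.599) and was -0.22 without the Ca/Ca muscle and 0.80 without the Ca/+ muscle, neither of which passed. Vegfb, a VEGF that muscle makes, fell by 1.63 (limma adjusted p = 0.015, and 0.175 without the Ca/+ muscle), and Fgf1, a fibroblast growth factor, fell by 2.03 (0.00013), with a sarcoma mean of 4.58 in background. Pgf (0.70) and Vegfc (0.72) had positive differences and Adm (-0.92), Pdgfb (-0.68) and Vegfd (-0.48) negative ones, and none passed. Hgf, Angpt1, Angpt4 and Fgf2 did not pass either and had both group means under 5.06, within background. In Ca/Ca sarcoma 3, however, Hgf stood at 5.82, above the highest background value (5.52). None of 10 angiogenesis inhibitors passed in limma, with a median of 0.99. Of the 10, 6 had an unadjusted p under 0.05, against 37.9% of all genes. Of 11 Notch genes, Nrarp (-1.04, limma adjusted p = 0.00296) and Jag2 (-0.57, 0.00785, and 0.0711 without the Ca/+ muscle) fell and Rbpj rose (1.47, 0.0428), with 0.88 and 0.382 without the Ca/+ muscle. Of 14 guidance genes, 3 passed as higher and 0 as lower. These counts, 3 of 11 and 3 of 14, are near the 26.3% of all genes that passed. The repellent ligand genes Slit2 (3.35, limma adjusted p = 0.0146) and Sema3a (2.72, 0.00554) rose. Without the Ca/+ muscle Slit2 differed by 1.84 (limma adjusted p = 0.154) and Sema3a by 1.74 (0.0515), and without the Ca/Ca muscle by 4.85 and 3.69. The Slit receptor gene Robo1 passed as well (limma adjusted p = 0.00944, and 0.117 without the Ca/+ muscle), but its means of 4.98 in sarcomas and 3.49 in muscles both lay in background.

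**Figure D4:**
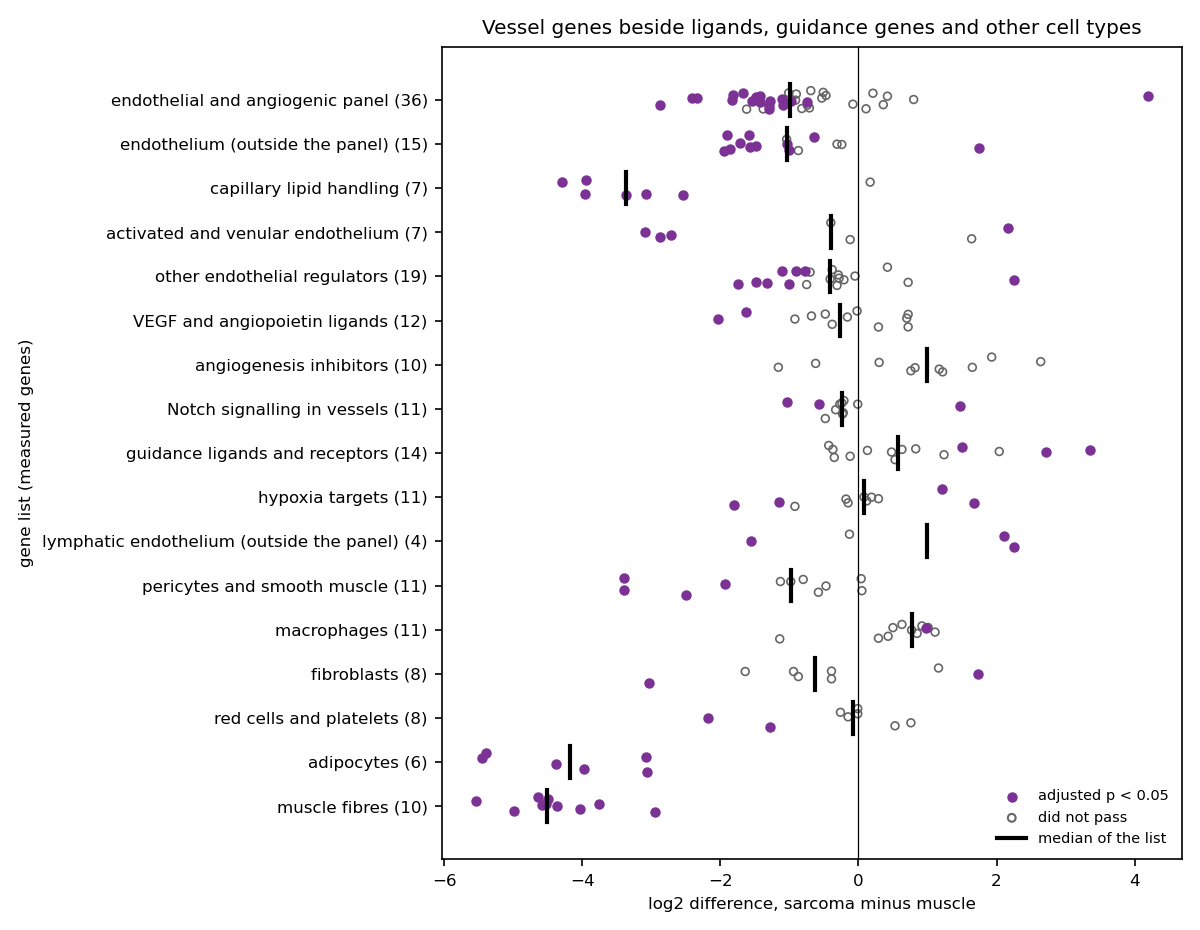
Log2 difference, sarcoma minus muscle (x axis), of every measured gene of the vessel panel and of other lists (rows, with the number of genes), filled where adjusted p was under 0.05 and open otherwise. Bars mark list medians, which are -0.99 for the panel, -1.04 for other endothelial genes, -0.27 for ligands, 0.77 for macrophages and -4.51 for muscle fibres.

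Markers of other cells that make some of these genes were read beside the panel. Over all genes, 13.2% passed as lower and 13.1% as higher. Macrophages also make Lyve1 and Nrp1, and their genes had a mean level of 9.35 to 10.33 in sarcomas, against 9.93 and 8.78 in the Ca/Ca and Ca/+ muscles, and 1 of 11 rose (Cd68, 0.98, limma adjusted p = 0.0451, with 0.42 and 0.443 without the Ca/+ muscle and 1.54 without the Ca/Ca muscle). Fibroblasts also make Cd34, and their genes had a mean of 9.46 to 10.36, against 10.82 and 10.03, with 1 of 8 higher (Thy1, 1.73) and 1 lower (Dpt, -3.04), of which both missed the threshold without the Ca/+ muscle (0.166 and 0.0782). Red cells or platelets also make Aqp1, Vwf or Tal1, and their genes had a mean of 5.02 to 6.15, against 5.62 and 6.09, with 2 of 8 lower (Alas2, -2.18, which lost its call without either muscle, and Slc4a1, whose means of 3.37 in sarcomas and 4.65 in muscles both lay in background). None of 7 leukocyte and progenitor genes passed in limma (median -0.31, with 1 of 7 at an unadjusted p under 0.05, against 37.9% of all genes). The part of these cells in the panel's differences was not tested.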

How the data were processed

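Total RNA of 8 samples was converted to biotin-labelled cRNA, per the labels' protocols, and measured on arrays whose probe set identifiers are of the Affymetrix form. The deposited values are log2 expression per probe set from RMA, per the submitters' processing notes, which correct background, give the arrays 1 distribution and summarise probes. The version of RMA, the scan dates and whether the arrays were processed together are not given in the sources used here, and the log2 scale was read from the values (array medians 5.79 to 5.90). Because arrays share 1 distribution, total RNA per tissue is not measured, and the number of arrays limits the precision. The table had 22690 probe sets, 64 of them controls. Of the rest, 20380 had 1 gene symbol in the platform annotation, 691 had several and 1555 had none or were not listed. Of the named probe sets, 20351 were found in RefSeq's genes (GRCm38.p6). No pair of arrays shared more than 32 equal values.

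Models were fitted with limma 3.58.1 (lmFit, eBayes) under R 4.3.3, with Benjamini-Hochberg p-values adjusted over 12393 genes, with a threshold of 0.05. Groups came from the sample titles. Sarcoma against muscle used 8 arrays, the genotype comparison the 6 sarcomas, and the interaction 4 groups, where a genotype's single muscle takes its spread from the sarcomas, as does the remaining muscle when the other is left out. In simulated data over 12393 genes with changes of 1, 2 and 4 log2 units, the sarcoma against muscle test recovered 51.6%, 86.4% and 95.7%, the genotype test 30%, 73.4% and 94%, and the interaction test 1.46%, 37.7% and 71.4%. Those simulations changed few genes per run and gave the muscles the spread of the sarcomas. In the real data 26.3% of genes passed in sarcoma against muscle, so the recovery rates of that test are only a guide. The vessel genes, roles and further lists were chosen with earlier results of these data known. All measured vessel genes and ligands are named, and from each other list the 3 largest changes that passed, unless said otherwise. Adipocyte and muscle fibre genes are given as lists.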

Additional observations from a re-analysis of the deposited data

Results flagged for a closer look

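Within the 6 sarcomas or the 4 Ca/Ca sarcomas, 7 of 72 gene and group combinations held a tumour far from the rest (Dixon's gap test), where chance flags about 1 in 20, and the groups of 4 lie inside the groups of 6. The gap test was not run over all genes, so the flags are not shown to be particular to vessel genes. Of the 7, 6 point to Ca/Ca sarcoma 5, which over all genes was also the sarcoma least correlated with the others. Among 6 sarcomas it was highest for Esam (9.40, others 7.63 to 8.24) and lowest for Lyve1 (8.04, others 8.90 to 9.38), Nrp1 (7.69, others 8.59 to 9.05) and Tal1 (4.17, others 5.05 to 5.47). Among the 4 Ca/Ca sarcomas it was lowest for Pecam1 (5.81, others 6.51 to 6.62) and Aplnr (6.06, others 9.14 to 9.62). The remaining one was Aqp1, lowest in Ca/Ca sarcoma 3 (9.0, others 9.88 to 10.30).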

How the results depend on the processing

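The 17 falls and 1 rise were recomputed under 19 alternatives. The count of falls ranged from 6 to 19 and the rise stayed at 1 when single arrays were left out, with 6 falls without the Ca/+ muscle, and the panel median ranged from -1.21 to -0.83. With Ca/Ca arrays only there were 4 falls and 0 rises, with Ca/+ arrays only 2 and 2 (median -1.32), where fewer samples enter. Without the dimmest 50% of genes there were 10 falls among 22 vessel genes still tested. Housekeeping centring moved the median of all genes to -0.31, the panel median to -1.33 and the falls to 21. Signs turned only where the gene had not passed. With Ca/Ca arrays only these were Cd34 (-0.02) and Apln (-0.33), with Ca/+ arrays only Lyve1 (0.14), under housekeeping centring Angpt2 (-0.22) and Prox1 (-0.13), and with single arrays left out Apln (-0.06 to 1.66), Angpt2 (-0.04 to 0.26) and the tip-cell median (-0.02 to 0.96), each lowest without the Ca/+ muscle. The cause was not tested.

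Between genotypes, the tumour number as a block left 0 vessel genes called. Only numbers 1 and 2 occur in both genotypes, and same-numbered tumours correlated at -0.189 and 0.293 in their deviations, so the numbers were not taken as pairs. The genotype and interaction counts stayed at 0 under every alternative run. Background correction could not be varied from the deposited values.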

Other observations

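Hypoxia targets did not move one way. Their counts, 2 of 11 higher and 2 of 11 lower, are near the shares of all genes (13.1% and 13.2%). Of 11 measured, Slc2a1, a glucose transporter (1.68), and P4ha1, a collagen hydroxylase (1.21), rose, Bnip3, a mitophagy receptor (-1.80), and Ldha, lactate dehydrogenase (-1.15), fell, and 7 did not pass, with a median of 0.08. Slc2a1, P4ha1 and Bnip3 missed the threshold without the Ca/+ muscle (limma adjusted p = 0.148, 0.398 and 0.198, with differences of 1.10, 0.68 and -1.30), and Ldha was named after its value was seen. Of 4 lymphatic genes outside the panel, Pdpn, a mucin also made by tumour and stromal cells, rose (2.11), Stab2, a scavenger receptor of lymphatic and sinusoidal lining, fell (-1.56) and Foxc2 rose (2.26), all of which missed the threshold without the Ca/+ muscle (0.22, 0.102 and 0.43, with differences of 1.28, -0.80 and 1.24). The sarcoma mean of Stab2 (4.72) lay in background. Of 13 housekeeping genes 3 rose (Ywhaz 1.22, Vps29 0.90, Tbp 0.59), against 13.1% of all genes, with a median of 0.35. Without the Ca/+ muscle these differences were 0.75, 0.78 and 0.57. Of 19 genes of other organs, which served as the guide to background, 1 passed as lower (Ins2).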
